A study of Mus musculus with 10 samples.

Results

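The 9 genes described here are 5 STAT transcription factors (Stat2, Stat3, Stat5a, Stat5b and Stat6) and the 4 Janus kinases (Jak1, Jak2, Jak3 and Tyk2). They were taken by symbol, and all 9 were found among the 23282 entries of each deposited table. The libraries come from skin of C57BL/6 mice aged 5 months: 5 from wild-type animals (WT) and 5 from animals with keratinocyte-specific ablation of STAT3 (STAT3cKO). The sources used here name no Cre driver, floxed exons, control alleles or sex. They also do not say that each library stands for its own animal, so all p-values describe the spread between libraries, which may be technical in part.

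Cytokine receptors have no kinase of their own. A Janus kinase bound to the receptor phosphorylates it and then a STAT protein, which pairs with another STAT, enters the nucleus and switches on target genes. STAT3 serves interleukin 6 type and interleukin 10 type receptors and growth factor receptors, and in the epidermis it is known for its part in wound healing, hyperproliferation and psoriasis-like disease. STAT2 works with interferon receptors, the STAT5 pair with growth hormone, prolactin and interleukin 2 type receptors, and STAT6 with interleukin 4 and 13. Because related STATs can be activated by the same receptors, the comparison asks whether the transcripts of the other STATs and of the kinases were higher when keratinocytes lack STAT3.

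Values are log2 of scaled reads per gene plus 1, as deposited. The kit reads the 3′ ends of transcripts, so a transcript gives reads regardless of its length and levels of different genes are compared without a length correction. Estimated depths were 7180000 to 16760000 reads in WT and 7510000 to 18350000 in STAT3cKO. In the 4 deeper libraries (WT 1, WT 2, STAT3cKO 4 and STAT3cKO 5) a gene without a read is listed at exactly 0. In the 6 shallower ones only the 5996 genes at 0 in all 10 libraries are, and other genes without a read are listed just above 0. STAT3cKO 2 and WT 3 stood apart. Of tested genes with a median of 7 to 8 in the other libraries, 37.1% had at most 1 read in STAT3cKO 2 and 17.3% in WT 3, against 0.441 to 12.8% in the other 8 libraries. STAT3cKO 2 also lacked Xist (0.06, against 8.65 to 11.01 in the other 9) and carried the Y-linked gene Ddx3y at 10.62, against at most 1.26. By these 2 genes STAT3cKO 2 reads as male and the other 9 as female. The part of sex in the values of STAT3cKO 2 was not tested. Defining markers of skin were present: the summed level of 10 keratinocyte markers was 15.41 to 16.91 in WT and 16.88 to 17.95 in STAT3cKO. The summed level of 8 adipocyte markers was 16.53 to 18.46 in WT and 14.75 to 17.06 in STAT3cKO, and that of 8 skeletal muscle markers 14.26 to 18.35 and 12.25 to 17.27. Their part in the results below was not tested, and in whole skin fewer cells of a type and less RNA per cell cannot be told apart.

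No STAT or Janus kinase gene passed the test between STAT3cKO and WT skin: 0 of 9 had a limma adjusted p under 0.05, where 0.988% of the 11536 tested genes did (0.529% higher and 0.459% lower). At an unadjusted limma p under 0.05 there was 1 of 9, Stat5b, which was lower, against 10.9% of all tested genes (4.95% higher and 5.95% lower). The groups did not overlap for 1 of 9, Stat2, which was higher in STAT3cKO, against 1.71% of all tested genes that were higher without overlap, 1.72% that were lower and 3.42% in either direction. The 2 genes with the most distinct groups thus had changes of opposite sign, positive for Stat2 and negative for Stat5b. The median change of the 9 genes was −0.92, beside −0.16 over all tested genes. That median rests largely on STAT3cKO 2, in which 5 of the 9 genes had fewer than 10 reads.

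**Figure D1:**
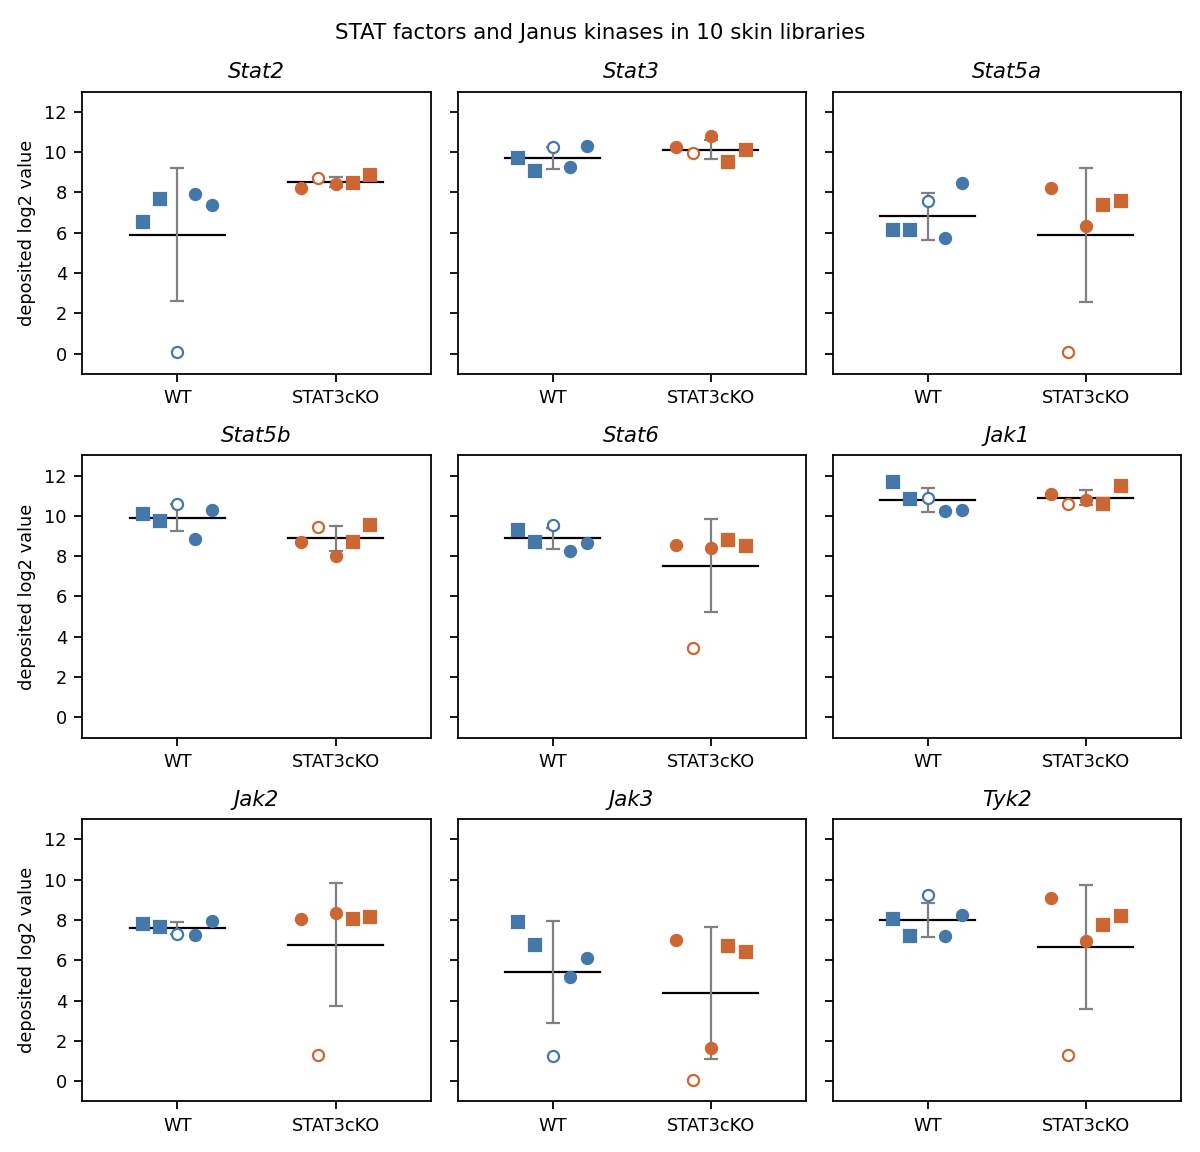
Deposited log2 value (vertical axis) of each STAT and Janus kinase gene in 5 WT (blue) and 5 STAT3cKO (orange) libraries. Squares are the 4 deeper libraries, open circles are WT 3 and STAT3cKO 2, black lines are group means and grey bars ± 1 SD. Stat2 is at 8.20 to 8.84 in STAT3cKO, above every WT library, and 5 genes have their lowest STAT3cKO point in STAT3cKO 2, at 3.44 or less.

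Stat3 itself (chromosome 11, 100885098 to 100939540, minus strand of mm10) was among the more abundant transcripts, above 84.2% of tested genes by its mean. From the first to the fifth library WT had 9.70, 9.08, 10.27, 9.27 and 10.29, and STAT3cKO had 10.25, 9.98, 10.81, 9.49 and 10.13; every later series of values follows this order. The groups overlapped and no STAT3cKO library was low. Between 519 and 1962 estimated reads lay behind each value. If each read stood for its own transcript, counting error was small beside the spread between libraries. No unique molecular identifiers are named, so this could not be checked. Means were 9.72 ± 0.56 for WT and 10.13 ± 0.48 for STAT3cKO (SD, n = 5), a change of 0.41 (95% interval −0.35 to 1.17, SE 0.36, limma adjusted p = 0.70). Reads at the 3′ end can arise from a transcript that lacks internal exons, and skin contains other cells with an intact gene, so the level is no check of the ablation.

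Stat3 and Stat5a end tail to tail. In the GENCODE annotation the last exon of Stat3 and that of Stat5a (chromosome 11, 100859351 to 100885169, plus strand) share 72 bases that are coding in neither gene, while RefSeq ends Stat3 earlier and leaves 1636 bases between them. The sources used here do not say which annotation was used or whether reads were counted by strand, so reads in the shared stretch cannot be assigned with certainty. Stat3 was higher than Stat5a in every library, and in STAT3cKO 2 Stat5a had no read where Stat3 was at 9.98.

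The genes whose values moved across libraries most like those of Stat3 were Icosl, Zbtb7b and Iqgap1. After subtracting each gene's own mean, the root mean square difference from Stat3 over the 10 libraries was 0.243 for Icosl, 0.280 for Zbtb7b and 0.292 for Iqgap1, among 7213 genes with a read in all libraries. For scale, the SD of Stat3 over the 10 libraries was 0.533. Of the other STAT and Janus kinase genes with a read in every library, Jak1 had the smallest difference, 0.639 at rank 917. Stat5b had 0.975 at rank 3606. Both differences exceed the SD of Stat3. A gene with the same value in every library would have a smaller one, so neither gene is shown to move with Stat3.

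Stat2 (chromosome 10, 128270559 to 128292849, plus strand) encodes the STAT that joins IRF9 in the interferon-stimulated gene factor. WT libraries had 6.53, 7.65, 0.06, 7.93 and 7.38, and STAT3cKO libraries 8.20, 8.70, 8.44, 8.46 and 8.84. Every STAT3cKO value exceeded every WT value, and the STAT3cKO values lay close together (8.53 ± 0.25, SD, n = 5). WT spread widely (5.91 ± 3.31), because WT 3 had 0 reads on Stat2, which allows up to 3 reads or a value of 2.34, while the gene's median in the other 9 libraries was 8.20. This limit covers counting error only. The change was 2.62 (95% interval −0.17 to 5.41, SE 1.33, limma adjusted p = 0.50, unadjusted p = 0.0642). An exact 2-sided permutation test on this gene alone gave p = 0.00794, the smallest that 5 libraries against 5 can give, without adjustment for the 9 genes looked at.

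Much of the size of the Stat2 difference came from the library without a read. Without WT 3 it was 1.16 (SE 0.58, limma adjusted p = 0.57), and the STAT3cKO libraries stayed above the remaining WT ones. It was 1.56 (SE 0.71, adjusted p = 0.43) among the 4 deeper libraries and 3.32 (SE 2.14, adjusted p = 0.82) among the 6 shallower ones, which hold WT 3. The keratinocyte marker sum was also higher in STAT3cKO, as given above, and 10 of 10 of these markers had a positive change. Its part in the Stat2 values was not tested.

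The start of Stat2 is shown because it is the 1 promoter among these 9 genes that held either of the STAT motifs searched. Windows of 300 bases, from 250 before to 50 after the RefSeq start on GRCm38.p6, were searched on both strands for the interferon-stimulated response element, which is GAAA, any 2 bases and GAAA again, and for the gamma-activated sequence to which STAT dimers bind, written TTCNNNGAA. The response element was in 3.44% and the gamma-activated sequence in 8.3% of 32851 windows. The window of Stat2 held 1 response element, at position −222 from the start; it lies on the opposite strand, so the capitals show its reverse complement. The window of Stat3, the ablated gene, is given beside it and held neither. All 9 genes had at least 1 window, and the remaining ones held neither motif. Both are written 5′ to 3′ on the strand of the gene; Stat2 lies at chr10:128270248-128270547 and Stat3 at chr11:100939491-100939790.
Stat2: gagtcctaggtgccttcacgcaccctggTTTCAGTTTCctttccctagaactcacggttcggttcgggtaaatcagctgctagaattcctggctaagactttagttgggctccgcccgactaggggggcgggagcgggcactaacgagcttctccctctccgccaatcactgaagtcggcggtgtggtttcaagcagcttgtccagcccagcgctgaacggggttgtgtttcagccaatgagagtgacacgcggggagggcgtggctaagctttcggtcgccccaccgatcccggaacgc
Stat3: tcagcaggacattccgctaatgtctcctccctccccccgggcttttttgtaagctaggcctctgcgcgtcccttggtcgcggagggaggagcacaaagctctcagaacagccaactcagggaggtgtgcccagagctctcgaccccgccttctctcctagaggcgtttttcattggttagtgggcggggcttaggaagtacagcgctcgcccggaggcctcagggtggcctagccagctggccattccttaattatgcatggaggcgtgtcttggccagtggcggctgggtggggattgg
A match of letters describes the sequence, and binding was not measured.

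With all 10 libraries the target genes of STAT2 had no common direction. Of 12 interferon-stimulated genes listed as its targets 9 were tested, 0 passed the test in either direction, 4 had a positive change and the median change was −0.14. Isg15, a ubiquitin-like modifier, had a change of −0.90 (SE 0.65, limma adjusted p = 0.63) and Bst2, which tethers virus particles, one of −1.33 (adjusted p = 0.76). Bst2 had no read in STAT3cKO 2, and its change was 0.24 without that library. That of Isg15 was −0.44 without STAT3cKO 3 and −1.52 without STAT3cKO 5. Irf9, the partner of STAT2 in the factor, was at 8.08 to 9.54 in WT and at 9.23 to 10.25 in 4 STAT3cKO libraries, but at 5.48 in STAT3cKO 2. Ifit3, Irf7, Usp18, Rsad2 and Ifi44 had no read in STAT3cKO 2 either. Elsewhere Ifit3 had none in WT 5, Usp18 in WT 2, Rsad2 in WT 1 and Ifi44 in STAT3cKO 3. Without STAT3cKO 2 and WT 3 the median change of the 9 target genes was 0.84, again with 0 calls. The sign of the median thus depended on these libraries.

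Stat5a and Stat5b are neighbouring copies that encode closely related proteins. Over their annotated protein-coding transcripts they shared 850 stretches of 30 bases, 20.6% of those in Stat5a and 15.4% of those in Stat5b, but 0 within the last 500 bases, where 3′ reads fall. None of the other 35 pairs among the 9 genes shared such a stretch. Their levels are therefore given separately.

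Stat5b (chromosome 11, 100780731 to 100850724, minus strand), the STAT that carries most growth hormone signalling in liver, was lower on average in STAT3cKO. It had 10.11, 9.73, 10.58, 8.87 and 10.28 in WT and 8.68, 9.46, 8.02, 8.72 and 9.57 in STAT3cKO. Only WT 4 reached down into the STAT3cKO range, and all 10 libraries had at least 240 estimated reads. Means were 9.91 ± 0.66 for WT and 8.89 ± 0.63 for STAT3cKO (SD, n = 5). They differed by −1.02 (95% interval −1.91 to −0.13, SE 0.42), with an unadjusted limma p of 0.0265 and an adjusted p of 0.38, so that it did not pass. The exact 2-sided permutation p for this gene alone was 0.0397, unadjusted.

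The difference in Stat5b did not rest on the 2 libraries with many missing genes. Without them it was −1.0 (SE 0.44, limma adjusted p = 0.42, n = 4 in each group). It was −0.77 (adjusted p = 0.57) among the deeper and −1.19 (adjusted p = 0.82) among the shallower libraries. The adipocyte, skeletal muscle and macrophage markers moved the same way: 0 of 8 had a positive change in each of these lists. None of them was without a read in all libraries. Keratinocyte markers (10 of 10 positive) and endothelial markers (5 of 6 positive) went the other way. The part of these cell types in the Stat5b values was not tested.

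Stat5a, which has a known part in prolactin signalling in the mammary gland, was the least abundant of the STAT factors in the median. It had 6.16, 6.15, 7.58, 5.74 and 8.48 in WT and 8.21, 0.06, 6.32, 7.36 and 7.56 in STAT3cKO. Its groups overlapped throughout. STAT3cKO 2 had 0 reads, which allows up to 3 reads or a value of 2.38. With all libraries the change was −0.92 (95% interval −4.22 to 2.38, SE 1.57, limma adjusted p = 0.85), and without STAT3cKO 2 it was 0.54 (adjusted p = 0.83). The sign of the Stat5a change was therefore set by 1 library.

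Stat5 targets gave no common direction. Of 8 listed genes 7 were tested, 0 passed and 5 had a positive change, with a median of 0.54. Igf1, the growth factor made on growth hormone signals, had the lowest p among them: it was 11.21 to 13.64 in WT and 10.45 to 12.23 in STAT3cKO, a change of −1.78 (SE 0.45, limma adjusted p = 0.082). It passed without WT 4 (adjusted p = 0.00138) or without STAT3cKO 5 (adjusted p = 0.0402). Pim1, a kinase gene induced by several STATs, had a change of 1.55 (SE 0.59, adjusted p = 0.31). Socs2 and Cish, feedback inhibitors that STAT5 induces, had changes of 0.10 and 0.90, and neither passed. Leaving out 1 library gave −0.51 to 0.51 for Socs2, and 0.35 for Cish without WT 3.

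Stat6 (chromosome 10, 127642986 to 127660957, plus strand), the mediator of interleukin 4 and 13, was steady in 9 of 10 libraries. It had 9.30, 8.68, 9.56, 8.24 and 8.64 in WT and 8.54, 3.44, 8.40, 8.80 and 8.49 in STAT3cKO. The low value is STAT3cKO 2, with an estimated 7 reads. The change of −1.35 (95% interval −3.19 to 0.49, SE 0.87, limma adjusted p = 0.59) became −0.33 without that library. The last exon of Stat6 shares 40 noncoding bases with that of Nab2 on the other strand, and Nab2 was at 3.44 in STAT3cKO 2 as well. Nab2 did not pass either (−1.05, SE 0.94, adjusted p = 0.71, and −0.10 without STAT3cKO 2).

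Genes downstream of STAT6 included the pathway's 2 calls, both lower in STAT3cKO. Of 12 listed targets 7 were tested, 2 fell, 0 rose and 5 did not pass, where 0.459% of all tested genes fell. The list was chosen with earlier results of these data known, so these counts are description only. The median change was −3.10, and −1.54 without STAT3cKO 2 and WT 3. Retnla, a secreted product of alternatively activated macrophages and fat, was 12.41 to 15.14 in WT and 10.37 to 12.46 in STAT3cKO, and it fell by 3.10 (SE 0.54, limma adjusted p = 0.0186). Alox15, a lipoxygenase, fell from 8.80 ± 1.05 to 1.18 ± 2.59 (limma adjusted p = 0.0277), with no read in 4 STAT3cKO libraries. Without STAT3cKO 2 and WT 3 together neither gene was called (limma adjusted p = 0.0785 for Retnla and 0.0813 for Alox15). Leaving out single libraries ended the call of Retnla without WT 2 (adjusted p = 0.0621). The call of Alox15 ended without WT 1, 2, 3 or 5 or STAT3cKO 1, 3 or 4, with adjusted p of 0.057 to 0.114. Marker sums that moved beside them included the adipocyte and skeletal muscle sums, given above. The macrophage sum did so too, at 13.11 to 14.44 in WT and 11.93 to 14.14 in STAT3cKO with 0 of 8 markers positive. The part of these cells in the falls was not tested.

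Jak1 (chromosome 4, 101152367 to 101265282, minus strand), which serves interleukin 6, interferon and common gamma chain receptors, was the most abundant of the 9 genes. It had 11.70, 10.85, 10.86, 10.23 and 10.29 in WT and 11.07, 10.61, 10.77, 10.61 and 11.49 in STAT3cKO. The groups overlapped over most of their ranges. The means were 10.79 ± 0.59 and 10.91 ± 0.38 (SD, n = 5), a change of 0.12 (SE 0.33, limma adjusted p = 0.91). The 95% interval of −0.57 to 0.81 is the narrowest of the 9 genes and leaves room for a rise of up to 0.81. Its end overlaps that of Raver2 on the other strand by 4 bases, and Raver2 was lower in all libraries, at 1.95 to 9.27.

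Jak2 (chromosome 19, 29251828 to 29313080, plus strand), the kinase of growth hormone and erythropoietin receptors, was tight in WT, at 7.78, 7.62, 7.30, 7.26 and 7.95. In STAT3cKO it was 8.05, 1.29, 8.32, 8.07 and 8.16. Every STAT3cKO library but STAT3cKO 2, with an estimated 1 read, lay above every WT library. The change over all libraries was −0.80 (95% interval −3.51 to 1.90, SE 1.28, limma adjusted p = 0.84), and the exact 2-sided permutation p was 1. Without STAT3cKO 2 the value was 0.57 (adjusted p = 0.69), and without both STAT3cKO 2 and WT 3 it was 0.50 (SE 0.49, adjusted p = 0.71, n = 4 in each group). In that smaller comparison 2 of 9 genes, Stat2 and Jak2, had groups that did not overlap, both higher, against 3.77% of tested genes higher, 3.45% lower and 7.22% in either direction. For Jak2 the separation follows from leaving out STAT3cKO 2, which held its 1 low value, and is no separate evidence of a rise.

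Tyk2 (chromosome 9, 21104068 to 21131243, minus strand), the kinase of interferon, interleukin 10 and interleukin 12 type receptors, had 8.04, 7.22, 9.23, 7.21 and 8.23 in WT. In STAT3cKO it had 9.07, 1.29, 6.96, 7.76 and 8.21, and the groups overlapped. STAT3cKO 2 again had an estimated 1 read. Exons of Tyk2 share 554 bases with the antisense gene 1700084C06Rik, which was not analysed here. The change was −1.33 (95% interval −4.01 to 1.35, SE 1.27, limma adjusted p = 0.72) with all libraries and 0.012 without STAT3cKO 2 (adjusted p = 1.0).

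Jak3 (chromosome 8, 71676296 to 71690575, plus strand), which pairs with the common gamma chain of lymphocyte receptors, was the least abundant and the most variable. It had 7.90, 6.74, 1.26, 5.16 and 6.11 in WT and 7.01, 0.06, 1.66, 6.70 and 6.43 in STAT3cKO. WT 3 had 1 read, STAT3cKO 3 had 2 and STAT3cKO 2 had 0, which allows up to 3 reads or a value of 2.38. The change was −1.06 (95% interval −5.0 to 2.88, SE 1.87, limma adjusted p = 0.85), 0.019 without STAT3cKO 2 and −2.10 without WT 3. The interval spans both a large fall and a large rise.

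Jak3 shares its annotated end and 404 noncoding exon bases with Insl3 on the same strand, but Insl3 was listed at 0 in all 10 libraries. B3gnt3 ends 181 bases beyond, on the other strand. It had no read in WT 1 to 3, and its change was 4.15 (SE 1.77, limma adjusted p = 0.40). Lymphocytes are the cells best known for Jak3. The summed level of 7 T and NK cell markers was 7.37 to 10.03 in WT and 1.44 to 8.06 in STAT3cKO. The value of 1.44 was STAT3cKO 2, and the other STAT3cKO libraries had 6.24 to 8.06. Of the 7 markers 2 had a positive change, and each had a read in some library. The part of this marker sum in the Jak3 values was not tested. Il2rg, the common gamma chain, had a change of −1.07 and did not pass; it had no read in STAT3cKO 2, and without that library its change was 0.31.

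**Figure D2:**
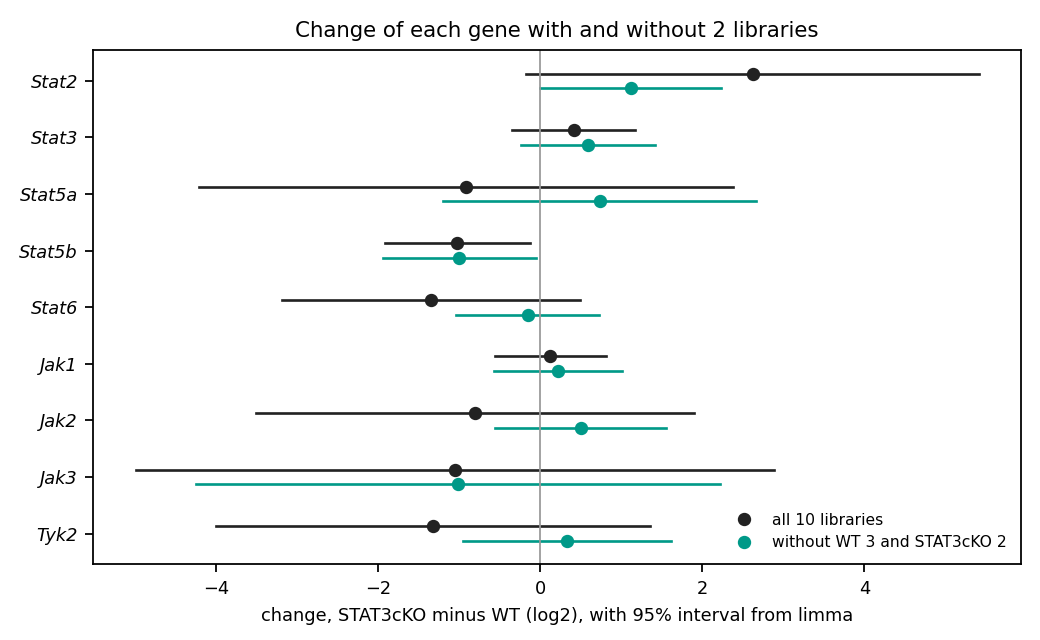
Change of each gene, STAT3cKO minus WT on the log2 scale (horizontal axis), with its 95% limma interval, for all 10 libraries (black) and without WT 3 and STAT3cKO 2 (green). Every black interval but that of Stat5b includes 0, and the changes of Stat5a, Jak2 and Tyk2 are negative with all libraries and positive without the 2.

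In order of the median level over the 10 libraries, Jak1 (10.81) was followed by Stat3 (10.05), Stat5b (9.51), Stat6 (8.59), Stat2 (8.07), Tyk2 (7.90), Jak2 (7.86), Stat5a (6.84) and Jak3 (6.27). Neighbours in this order were close. Jak1 exceeded Stat3 in 9 of 10 libraries, by 0.92 ± 0.67 (SD). For every later pair the SD of the difference over the 10 libraries was larger than its mean. Within a group some neighbours did stand apart: Stat5b exceeded Stat6 in 5 of 5 WT libraries, by 1.03 ± 0.38 (SD), and Stat3 exceeded Stat5b in 5 of 5 STAT3cKO libraries, by 1.24 ± 0.96, against −0.19 ± 0.41 in WT. In STAT3cKO Jak2 exceeded Stat5a in 4 of 5 libraries, by 0.87 ± 0.80. The remaining pairs, from Stat6 down, differed by less than their SD in both groups. Even so, Stat6 exceeded Stat2 in 5 of 5 WT libraries, by 0.3 to 9.5, and in 2 of 5 STAT3cKO libraries. The highest of these WT differences is that of WT 3, where Stat2 had no read, and it widens the SD.

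The make-up of the STAT transcripts is a ratio within each library and so does not depend on the scaling between libraries. Stat3 supplied 32.6 ± 4.49% (SD, n = 5) of the summed level of the 5 STAT genes in WT and 46.2 ± 11.2% in STAT3cKO. Stat5b supplied 37.4 ± 5.77% in WT and 20.9 ± 9.17% in STAT3cKO. Stat3 was the most abundant STAT in 5 of 5 STAT3cKO libraries and in 2 of 5 WT libraries, where Stat5b led the other 3. On the log2 scale Stat3 minus Stat5b was −0.65 to 0.41 in WT and 0.52 to 2.79 in STAT3cKO, ranges that did not overlap. This ratio was noticed in the data and is given without a test.

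Stat2 made up 0 to 14.5% of the STAT sum in WT and 11.3 to 19.5% in STAT3cKO, which overlap. The summed level of the 5 genes was 11.35 ± 0.48 in WT and 11.28 ± 0.22 in STAT3cKO (log2, SD, n = 5), a smaller difference than the spread of either group. Among the kinases Jak1 held 67.1 to 82.3% of the summed level in WT and 69.7 to 99.8% in STAT3cKO, and it led in every library. The kinase sum was 11.19 ± 0.53 in WT and 11.23 ± 0.47 in STAT3cKO.

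**Figure D3:**
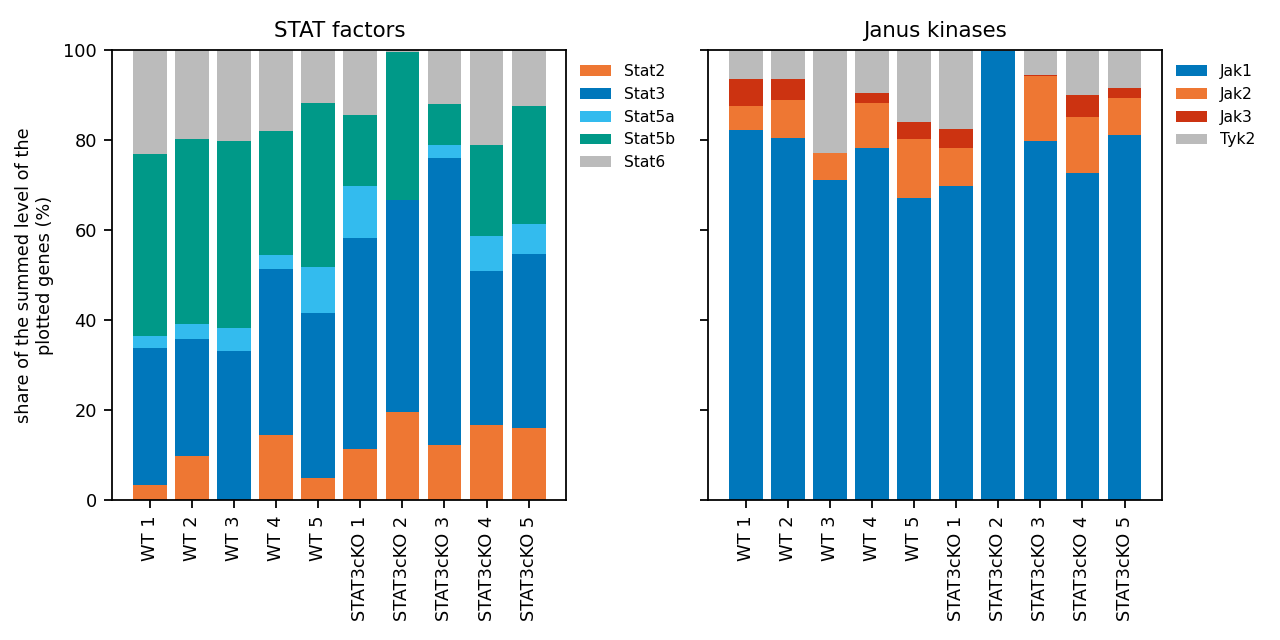
Share of each gene in the summed, unlogged level of the 5 STAT genes (left) and of the 4 Janus kinases (right), in percent, for each library. Stat3 (blue, left) takes 26.1 to 36.7% in WT and 34.2 to 63.7% in STAT3cKO, and the single-coloured kinase bar is STAT3cKO 2, where Jak1 takes 99.8%.

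Among the other genes of the pathway, on lists chosen with earlier results of these data known, 2 passed the test. Over 12 lists of inhibitors, partners, receptors, kinases and targets, 108 genes were named, 80 were tested, 0 rose, 2 fell (Retnla and Alox15) and 78 did not pass, where 0.988% of all tested genes were called. Their median change was −0.01, beside −0.16 over all tested genes, and 39 of 80 had a positive change, beside 43.8% of all tested genes. Without STAT3cKO 2 and WT 3 the median was 0.25, beside −0.03 over all tested genes, and 0 were called.

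Among the inhibitors, 6 of 8 members of the SOCS family, which bind JAKs and receptors and are induced by STATs, were tested, and 0 passed, with a median of 0.22. Socs3, the feedback inhibitor of gp130, was at 8.64, 7.54, 8.61, 6.95 and 1.36 in WT and at 8.96, 10.09, 8.56, 9.38 and 10.80 in STAT3cKO. Its groups overlapped only through WT 1, WT 3 and STAT3cKO 3. The change was 2.94 (SE 1.18, limma adjusted p = 0.37). Without WT 5 it was 1.62. Socs6 had a change of −1.74 (adjusted p = 0.63), which was −0.45 without STAT3cKO 2.

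Of the PIAS ligases, which attach SUMO and restrain STATs, 3 of 4 were tested and 0 passed. Pias3, named for its binding to STAT3, was 6.93 to 8.31 in WT and 8.23 to 9.21 in STAT3cKO (1.27, SE 0.55, limma adjusted p = 0.41), and Pias1 had a change of 0.11, between −0.20 and 0.33 with 1 library left out. Of 7 phosphatases 6 were tested and 0 passed, with a median of 0.30. Dusp22, a phosphatase with a reported role on STAT3, was 6.19 to 9.19 in WT and 9.20 to 10.90 in STAT3cKO, groups that did not overlap (1.69, SE 0.54, adjusted p = 0.17). Without WT 3, its lowest library, the change of Dusp22 was 1.13. Ptpn2 had a change of 2.30 (adjusted p = 0.56), but it had no read in WT 5, and without that library the change was 0.67.

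All 14 adaptors and partners were tested and 0 passed, with a median of 0.09. Ep300, an acetyltransferase that STATs recruit, came nearest: it was 7.92 to 9.32 in WT and 10.07 to 10.40 in STAT3cKO, without overlap (1.38, SE 0.36, limma adjusted p = 0.0747). Ncoa1, a coactivator of STAT6, had a change of 0.95 (adjusted p = 0.56), and 0.62 without WT 3.

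Receptor chains gave 0 calls in each of 4 lists. The gp130 family (5 of 8 tested, median 0.47) included Il6st, gp130 itself, at 8.97 to 10.19 in WT and 9.16 to 10.59 in STAT3cKO (0.47, SE 0.37, limma adjusted p = 0.66; 0.31 without WT 4), and Il11ra1, with −0.58 (adjusted p = 0.41). The interleukin 10 and interferon chains (9 of 10 tested) had a median of −0.65, which was 0.61 without STAT3cKO 2 and WT 3. Ifngr1, the interferon gamma receptor chain, was 9.12 to 10.82 in WT and 10.36 to 11.47 in STAT3cKO (1.12, SE 0.35, adjusted p = 0.17), and Il20rb had 0.68 (adjusted p = 0.57), and 0.31 without WT 4.

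Of the common gamma, interleukin 4 and TSLP chains 6 of 10 were tested, with a median of −0.63, and −0.17 without STAT3cKO 2 and WT 3. Il4ra, which signals through STAT6, was 9.97 to 11.38 in WT and 8.49 to 9.65 in 4 STAT3cKO libraries, with no read in STAT3cKO 2. Its groups did not overlap, and its change was −3.31 (SE 1.71, limma adjusted p = 0.53). Without that library it was −1.53. Il15ra had −1.81 (adjusted p = 0.71), and −0.58 without STAT3cKO 2, where it had no read. Of the homodimeric and beta common receptors 4 of 10 were tested. Ghr, the growth hormone receptor upstream of JAK2 and STAT5B, was 10.16 to 12.09 in WT and 7.23 to 10.23 in STAT3cKO (−2.34, SE 0.55, adjusted p = 0.0585). Without WT 4, WT 5 or STAT3cKO 2 it passed, with adjusted p of 0.0466, 0.0317 and 0.0317. Csf2rb had 1.0 (adjusted p = 0.75), and 0.22 without WT 4 or 0.64 without STAT3cKO 5. The adipocyte, skeletal muscle and macrophage markers moved the same way as Ghr, and their part was not tested.

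Of 10 receptor and Src family kinases 9 were tested and 0 passed, with a median of −0.12, which turned to 0.14 without STAT3cKO 2 and WT 3. For Fyn the value was −1.90 (limma adjusted p = 0.52), and for Met, the receptor of hepatocyte growth factor, −2.39 (adjusted p = 0.55). Both were low in STAT3cKO 2, Fyn at 2.40 and Met with no read, and without it the values were −0.76 and −0.80.

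**Figure D4:**
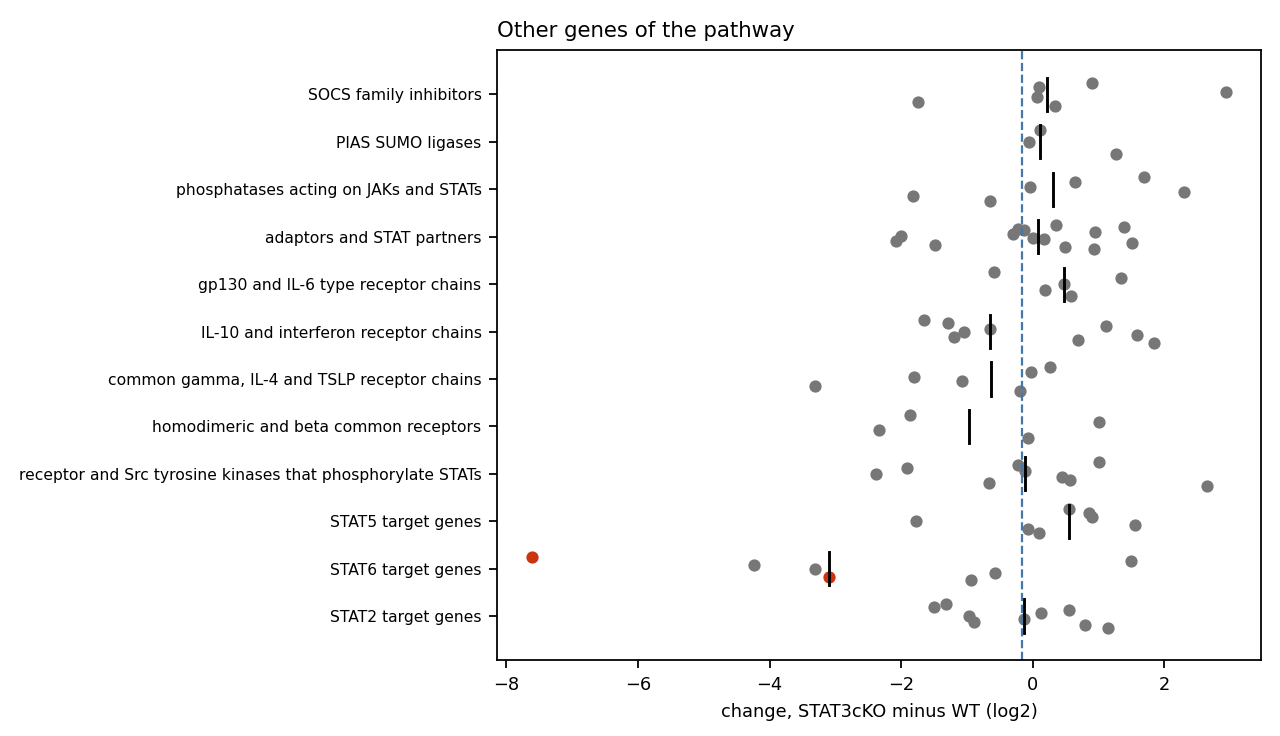
Change of each tested gene of the 12 pathway lists, STAT3cKO minus WT on the log2 scale (horizontal axis). Red points are genes with a limma adjusted p under 0.05, grey points did not pass, black bars are list medians and the dashed line is the median of all tested genes (−0.16); the 2 red points are Alox15 and Retnla, and 0 genes to the right are red.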

How the data were processed

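RNA from whole skin was sequenced at transcript 3′ ends in 10 libraries, per the labels' protocols. Reads were processed with Bowtie2 and bedtools on mm10, per the submitters' processing notes; the sources used here give no versions, annotation, strand use, scaling or duplicate handling. The authors deposited log2 values, a unit read from the values: undoing the log gave sums of 9690000 to 11410000, and 89.5 to 100% of values up to 20 reads lay within 0.15 of a whole read. Depth is each sum divided by the worth of 1 read, and describes counting error only. No unique molecular identifiers are named.

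Genes with a value of at least 5 in at least 5 libraries (11536, all 9 members included) were tested with limma (version 3.58.1, under R version 4.3.3; a model of group alone with mean trend and robust estimation) and adjusted by Benjamini-Hochberg over all of them. Changes are STAT3cKO minus WT; errors of means are SDs and those of changes standard errors. The steps were also run on simulated data. No rate of recovered or false calls from that run is given, so no conclusion about the calls or intervals is drawn from it. Bringing libraries to equal sums moved the median change of all genes from −0.16 to −0.05, and bringing them to equal medians moved it to −0.20.

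The members and the gene lists were chosen with earlier results of these data known. Named genes are the members, each list's called genes or its 2 with the lowest p, genes overlapping a member's exons or ending within 1000 bases of its end, and the 3 genes most like Stat3; Irf9, Socs2, Cish and Il2rg were added after their values were seen. Alternatives covered filters, pseudocount, scaling, the variance model, depth, a replicate block and left-out libraries. Positions are from GENCODE and promoters from RefSeq.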

Additional observations from a re-analysis of the deposited data

Results flagged for a closer look

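In 5 of the 18 sets of 5 values (9 genes in 2 groups) the lowest library lay far from the other 4, where chance marks about 1 set in 20. In WT this was Stat2 in WT 3, at 0.06. In STAT3cKO it was STAT3cKO 2 each time: Stat5a at 0.06, Stat6 at 3.44, Jak2 at 1.29 and Tyk2 at 1.29. These 2 libraries also had the most tested genes without a read, 2617 in STAT3cKO 2 and 1273 in WT 3.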

How the results depend on the processing

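Under 22 of 23 alternatives all 9 genes were tested and 0 were called; with a filter at a value of 8, Stat5a, Jak2 and Jak3 were not tested and 0 of the other 6 were called. Under all 23, Stat2, Stat3, Stat5b and Stat6 kept their sign. Over these alternatives the change was 1.11 to 3.32 for Stat2, 0.24 to 0.58 for Stat3, −1.29 to −0.77 for Stat5b and −2.02 to −0.16 for Stat6. Signs turned in the others. Without STAT3cKO 2 and WT 3 together the change was 0.73 for Stat5a, 0.50 for Jak2 and 0.32 for Tyk2. Among the 4 deeper libraries it was 1.31 for Stat5a, −0.23 for Jak1, 0.41 for Jak2 and 0.35 for Tyk2. With values without a read set to missing, an alternative chosen after seeing the data, it was 0.54 for Stat5a and 0.019 for Jak3. Leaving out 1 library gave −1.495 to 0.54 for Stat5a, −0.024 to 0.35 for Jak1, −1.19 to 0.57 for Jak2, −2.10 to 0.019 for Jak3 and −1.93 to 0.012 for Tyk2.

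Over all tested genes 61 were called higher and 53 lower. The counts were 100 and 98 with a pseudocount of 32, 13 and 31 without trend and robust estimation, 12 and 4 in the 6 shallower libraries, and 82 and 92 in the 4 deeper ones. Leaving out 1 library gave 29 to 96 higher and 24 to 111 lower, with the highest counts without WT 4. With the replicate number as a block they were 34 and 32. The values gave no sign of pairing by number: same-numbered deviations correlated at −0.162 to −0.0058, and no library correlated best with its own number. Animals can be paired without such a correlation, so this does not settle whether they were. At equal sums 76 were higher and 39 lower, and at equal medians 59 and 61. For genes of these levels, 0 or 1 read in STAT3cKO 2 or WT 3 sets much of the interval. Leaving out single libraries for the named genes of the pathway lists was chosen after seeing the data.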
